A study of Homo sapiens with 22 samples.

Results

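The regions described here are 1835 stretches of chromatin that carried H3K27ac in AN3CA cells with wild-type ARID1A, in the absence of a called BAF peak. All of them carried it again in the cells of each of 2 ARID1A mutants. They were selected on peak calls on chromosomes 1 to 22, with an overlap of at least 1 bp: WT peaks of H3K27ac with none in either Empty replicate, with no SMARCA4 or SMARCC1 peak of WT over them, and with one in both DBDmut and delIDR1. They make up 1835 of the 13212 new WT H3K27ac peaks without a BAF peak (13.9%), of 19816 new peaks in all (9.26%) and of 49682 WT H3K27ac peaks (3.69%). Of the 13212, 3877 were met by H3K27ac of DBDmut and 2941 by that of delIDR1, and the 1835 are those met by both.

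H3K27ac, acetylation of lysine 27 on histone H3, marks active enhancers and promoters. BAF (SWI/SNF) complexes use the energy of ATP to slide or evict nucleosomes, with SMARCA4 as an ATPase and SMARCC1 as a scaffold of the complex core. ARID1A is a large subunit of canonical BAF that binds DNA through its ARID domain, and it is among the most often mutated genes of endometrial carcinoma. BAF is known to open enhancers so that acetyltransferases can act there, which makes acetylated regions with no detected BAF a set of its own to describe.

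The study profiled AN3CA, an established human endometrial carcinoma line, by CUT&Tag, a method that tethers a transposase to an antibody-bound protein or mark and sequences the DNA cut out beside it. The cells expressed wild-type ARID1A (WT), a form with a mutated ARID domain (DBDmut), the delIDR1 truncation, the CBR truncation, a hybrid of ARID1A with the disordered region of DDX4 (DDX4), or an empty vector (Empty). Each construct had 1 library per antibody for H3K27ac, SMARCA4 and SMARCC1, Empty had 2 replicates of each, and an HA library from DDX4 cells was also analysed. What promoter drove the constructs, and whether a construct was 1 clone or a pool, is not given in the sources used here. The labelled cell type could not be checked against marker genes, because no gene annotation of the files' build was used.

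Peak lists held 30991 to 90766 peaks for H3K27ac, 5453 to 14849 for SMARCA4, 9489 to 23364 for SMARCC1 and 5268 for HA on chromosomes 1 to 22. The longest list by far was H3K27ac of Empty replicate 2, which also had the highest background, with at least 2.02 fragments expected at a peak against 0.431 to 1.05 in the other H3K27ac libraries. The weakest peaks of a library rested on 5 to 9 fragments for H3K27ac and on 3 to 5 for SMARCA4, SMARCC1 and HA. Peak names carried 3 different stamps, of which the first was shared by WT, DBDmut, delIDR1, CBR and Empty replicate 1, the second belonged to DDX4 and the third to Empty replicate 2. The stamps may be sequencing runs, which the labels do not say, and DDX4 cannot be told apart from its stamp. Each ARID1A form had 1 library per antibody, so no test over samples was made. Shares are given with Wilson 95% intervals and differences with Newcombe 95% intervals, which cover counting error only, and for a count of 0 the share that 3 counts would give is stated as its limit.

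The 1835 regions were mostly modest peaks. The values in this paragraph come from the libraries that chose the regions and are a description only. The authors' fold enrichment over the local background ran from 1.94 to 17.1 in WT, with a median of 6.04, and the medians of the peaks that met them were 5.63 in DBDmut and 5.78 in delIDR1. In WT the median region was 335 bp wide with 18 fragments at its summit, against 516 bp and 32 fragments for the 3030 new peaks of both mutants that did have a WT BAF peak. New peaks without BAF that neither mutant had were weaker, with a median fold of 4.86 and 10 fragments over 8229 peaks. Only 35 of the 1835 stood in the top 10% of the WT list by −log10 q, 36 in that of DBDmut and 41 in that of delIDR1.

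The position of the mutant peaks is likewise a description, since overlap with them chose the regions. Summits lay a median of 66 bp apart for DBDmut and 78 bp for delIDR1, and within 250 bp at 85.5% and 81.9% of regions. The 1835 regions met 1805 different DBDmut peaks and 1797 different delIDR1 peaks, so few regions shared a broad mutant peak. Overlap was under 50 bp at 31 regions for DBDmut and at 72 for delIDR1. The DBDmut peak reached beyond the region to a WT SMARCA4 or SMARCC1 peak at 102 regions (5.56%), and the delIDR1 peak did so at 113 (6.16%).

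At the edges of the selection the calls were separated by a few bases. The regions closest to a WT BAF peak lay 2, 2 and 14 bases from it, and the nearest peaks kept out of the set shared 3, 4 and 7 bases with one. An Empty H3K27ac peak lay 1, 2 and 2 bases from the 3 closest regions. Within 1 kb there was an Empty replicate 1 peak at 148 regions (8.07%) and an Empty replicate 2 peak at 343 (18.7%), so that part of the regions flanked acetylation that Empty cells also had. For new BAF-free peaks of neither mutant these shares were 5.10% and 18.1%, and for new peaks of both mutants with a WT BAF peak 2.71% and 10.3%.

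The strongest region, by summed rank in the 3 H3K27ac lists that chose it, lay at chr14:23531245-23531624 (hg19), with 104 fragments at its WT summit, in place 888 of 49682 in WT, 589 of 38153 in DBDmut and 2687 of 30991 in delIDR1. It was also acetylated in CBR, with a fold of 9.26, and in DDX4, with 6.15, and had no SMARCA4, SMARCC1 or HA peak in any library. The next, chr1:24335942-24336514, had folds of 12.6 in WT, 11.0 in DBDmut and 9.80 in delIDR1 and no peak in CBR or DDX4. That region carried both SMARCA4 (fold 6.89) and SMARCC1 (6.95) in DBDmut, with the nearest WT BAF peak 8.81 kb away. The widest of the 10 strongest, 1826 bp at chr15:77799909-77801734, had H3K27ac folds of 9.11 in WT, 8.50 in DBDmut, 9.02 in delIDR1 and 6.61 in CBR, and SMARCC1 peaks in DBDmut (6.80) and delIDR1 (5.58). These first 3 regions thus already differed in which other forms had acetylation and in whether a mutant had BAF there.

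Among the 10 strongest, the highest folds in WT and DBDmut were at chr1:205144587-205144944, with 15.0 in WT, 15.4 in DBDmut, 11.1 in delIDR1 and 8.71 in CBR. The region at chr2:201271224-201271667 stood in place 8917 of the WT list, 942 of the DBDmut list and 1090 of the delIDR1 list. It was acetylated in DDX4 (fold 4.60) and not in CBR, and a WT BAF peak lay 0.206 kb outside its edge. Acetylation in both CBR and DDX4 was also called at chr11:12562331-12562962 (folds of 7.42 in CBR and 6.04 in DDX4) and chr2:150468558-150469098 (9.60 in CBR and 6.54 in DDX4). The regions at chr1:67009202-67009458 and chr2:191334562-191334865 had it in neither. The last of the 10, chr10:81918351-81918728, had it in CBR only, with a fold of 4.99.

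**Figure D1:**
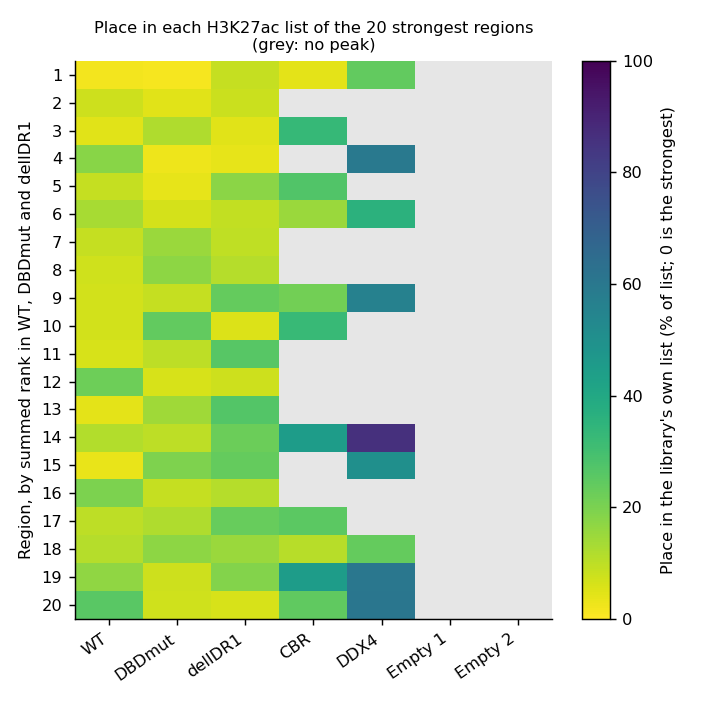
Place of the H3K27ac peak in its library's own list by −log10 q (colour, % of the list, with 0 for the strongest peak) at the 20 strongest of the 1835 regions, one per row, in WT, DBDmut, delIDR1, CBR, DDX4 and both Empty replicates, with grey where no peak was called. The first 3 columns are filled and the Empty columns are grey by the choice of regions, while CBR has a peak at 11 of the 20 and DDX4 at 9. Over all WT H3K27ac peaks CBR met 42.7% and DDX4 49.0%.

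Most of the regions were not acetylated with the remaining forms of ARID1A. The H3K27ac libraries of CBR and DDX4 played no part in the choice. CBR had a peak at 223 of the 1835 regions (12.2%, interval 10.7 to 13.7), against 42.7% of all WT H3K27ac peaks. DDX4 had one at 259 (14.1%, 12.6 to 15.8), against 49.0% of all WT peaks. Both had one at 69 regions (3.76%, 2.98 to 4.73, against 36.2% of all WT peaks), and 1422 regions (77.5%) had one in neither. CBR or DDX4 had one at 413 regions (22.5%), against 55.5% of all WT peaks.

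These low shares go with the absence from Empty that defines the regions. Among WT peaks without BAF that both Empty replicates also had, CBR met 68.3% and DDX4 86.7%. Without the condition on Empty replicate 2, the same choice gave 3178 regions, of which CBR met 29.7% and DDX4 37.2%. Without the condition on Empty replicate 1, it gave 2276, of which CBR met 12.3% and DDX4 23.2%. The share for CBR therefore rested on replicate 2, the deeper library, and that for DDX4 on both.

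Regions kept in both mutants were found in CBR and DDX4 more often than new BAF-free peaks that the mutants lacked. CBR met 12.2% of the 1835 regions and 4.11% of the 8229 peaks that neither mutant had, a difference of 8.05 points (6.56 to 9.67). DDX4 met 14.1% and 3.65%, a difference of 10.5 points (8.89 to 12.2). New BAF-free peaks of 1 mutant only fell in between, with 6.58% in CBR and 6.64% in DDX4 over 3148 peaks. The 3 sets differ in peak strength, and within each of 3 equal parts of the WT list by −log10 q the 1835 regions remained above the peaks of neither mutant, by 8.64, 7.77 and 2.94 points for CBR and by 14.9, 8.24 and 11.2 points for DDX4, strongest part first.

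**Figure D2:**
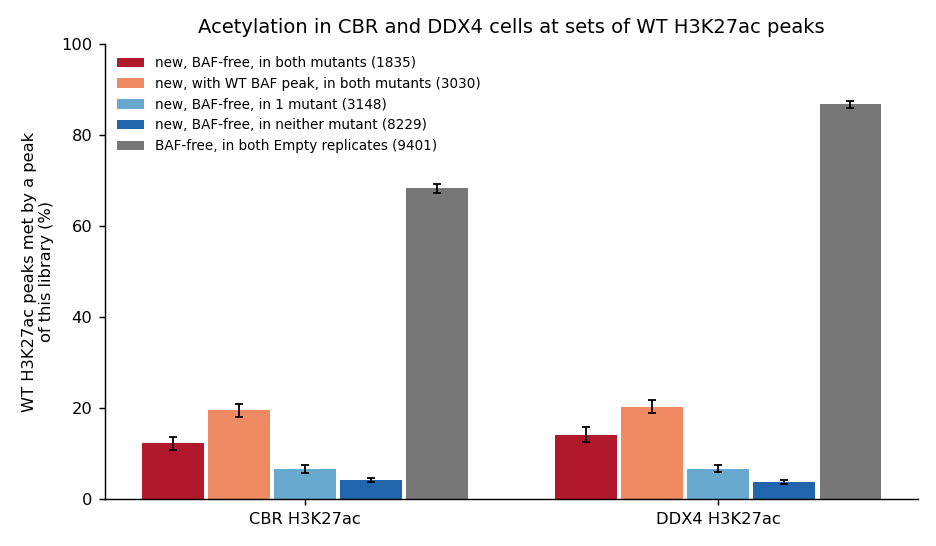
Share of WT H3K27ac peaks (vertical axis, %) met by an H3K27ac peak of CBR (left) or DDX4 (right), for 5 sets of WT peaks with the number of peaks in brackets and Wilson 95% intervals for counting error. The 1835 regions stand at 12.2% in CBR and 14.1% in DDX4, above the new peaks of 1 or neither mutant and below those with a WT BAF peak.

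Set against the 3030 new peaks of both mutants that had a WT BAF peak, the 1835 regions were acetylated less often in CBR (12.2% against 19.5%, a difference of -7.32 points, -9.35 to -5.23) and in DDX4 (14.1% against 20.3%, -6.15 points, -8.26 to -3.98). The sets differed in strength: 23.7% of the 1835 regions and 68.5% of the 3030 peaks stood in the strongest of the 3 parts of the WT list, and the gap within parts, weighted by the mix of the 1835 regions, was 0.0464 points for CBR (-2.17 to 2.09) and 0.809 points for DDX4 (-1.59 to 3.02). In the strongest part it was -4.79 points for CBR (-8.72 to -0.425), with 19.4% of 434 regions against 24.1% of 2075 peaks, and -6.02 points for DDX4 (-9.92 to -1.68), with 18.9% against 24.9%. In the middle part it was 1.81 points for CBR (-1.27 to 4.85) and 0.479 points for DDX4 (-2.57 to 3.50), with both intervals spanning 0. In the weakest part it was 1.14 points for CBR (-3.61 to 4.63) and 6.71 points for DDX4 (1.02 to 11.3), where DDX4 met 15.1% of 550 regions and 8.38% of 179 peaks with BAF.

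The DDX4 gap also depended on the Empty libraries. It was -0.760 points (-3.00 to 1.52) without Empty replicate 1 and turned to 4.04 points (1.83 to 6.24) without replicate 2. For CBR it was -8.94 points without replicate 1 and -2.40 points (-4.52 to -0.266) without replicate 2, the setting in which all libraries but DDX4 share a stamp. Where CBR or DDX4 did have a peak at the 1835 regions, its median fold was 5.29 in CBR and 4.53 in DDX4.

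**Figure D3:**
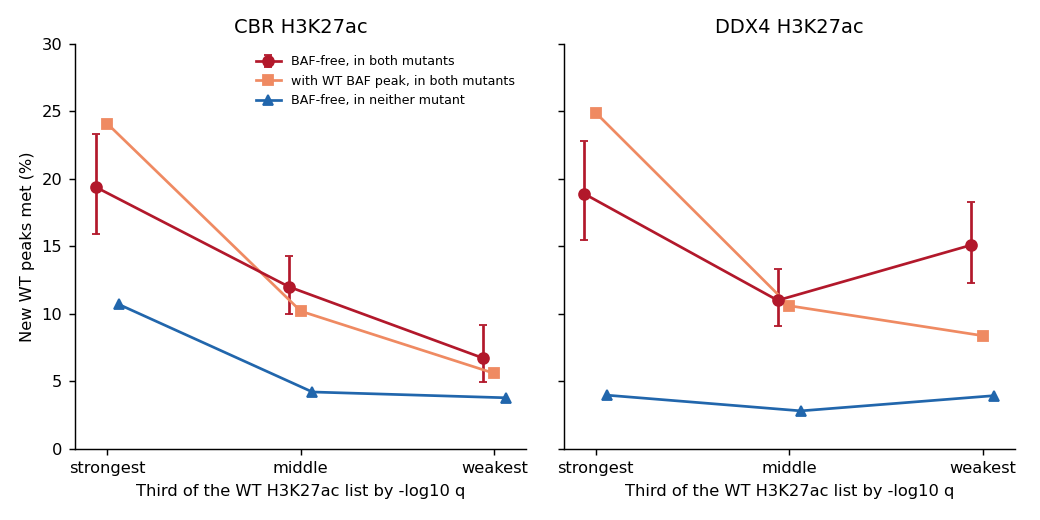
Share of new WT H3K27ac peaks (vertical axis, %) met by CBR (left panel) or DDX4 (right panel) in the strongest, middle and weakest part of the WT list, for the 1835 BAF-free regions of both mutants (circles, with Wilson 95% intervals), BAF-bearing peaks of both mutants (squares) and BAF-free peaks of neither mutant (triangles). The circles are below the squares in the strongest part, close to them in the middle part and, for DDX4, above them in the weakest part.

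BAF was called at part of these regions in the mutants, although by choice none had a BAF peak in WT, so that "BAF-free" holds for the WT lists alone. DBDmut had a SMARCA4 peak at 190 regions (10.4%, against 21.7% of all WT H3K27ac peaks), a SMARCC1 peak at 295 (16.1%, against 27.1%), either at 393 (21.4%, interval 19.6 to 23.4, against 31.6%) and both at 92 (5.01%, against 17.3%). In delIDR1 SMARCA4 met 46 regions (2.51%, against 11.3%), SMARCC1 70 (3.81%, against 16.5%), either 102 (5.56%, 4.60 to 6.70, against 19.3%) and both 14 (0.763%, against 8.48%). All these shares were below those of WT H3K27ac peaks at large, to which BAF-bearing peaks contribute.

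Other peaks without WT BAF had BAF in the mutants at shares below, near or above these. BAF of DBDmut was at 21.4% of the 1835 regions and 1.97% of new BAF-free peaks of neither mutant, a difference of 19.4 points (17.6 to 21.4). BAF of delIDR1 was at 5.56% and 0.304%, a difference of 5.25 points (4.29 to 6.40). New BAF-free peaks of 1 mutant only had 9.91% in DBDmut and 2.22% in delIDR1. These sets were chosen by acetylation in the same mutant cells, and they differ in strength. The median WT pileup was 18 fragments at the 1835 regions and 10 at peaks of neither mutant. The differences between these sets are therefore a description only. Set against BAF-free peaks that both Empty replicates had, the 1835 regions differed by 1.29 points in DBDmut (21.4% against 20.1%, interval -0.703 to 3.39) and by -3.63 points in delIDR1 (5.56% against 9.19%, -4.76 to -2.35). New peaks of both mutants with a WT BAF peak had one at 66.1% in DBDmut and 35.3% in delIDR1.

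The BAF peaks of the mutants at these regions were weak. The median SMARCA4 peak rested on 6 fragments in DBDmut and 6 in delIDR1, and the median SMARCC1 peak on 8 and 7. Their median places in the lists were 10187 of 14849 and 12824 of 18427 in DBDmut and 5362 of 7011 and 7707 of 10273 in delIDR1, for SMARCA4 and SMARCC1 in turn. The lowest pileup that gave a SMARCA4 peak was 3 fragments in DBDmut and 4 in WT and delIDR1. With the lists of each antibody cut to equal length, 2862 regions met the choice and 10.3% of them had a BAF peak in DBDmut and 10.3% in delIDR1. The cut also shortened the WT SMARCA4 and SMARCC1 lists and the H3K27ac lists of Empty. The 2862 regions can therefore include some with a WT BAF peak or an Empty H3K27ac peak in the full lists. Because they are a different set, they cannot decide whether the higher share in DBDmut rests on list length. The part of depth in these calls was not tested.

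**Figure D4:**
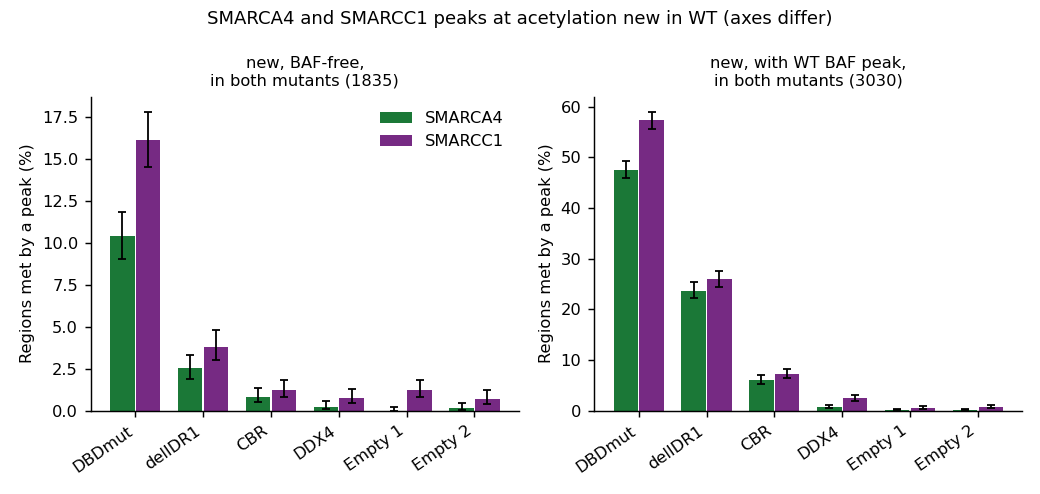
Share of regions (vertical axis, %, with Wilson 95% intervals) met by a SMARCA4 (green) or SMARCC1 (purple) peak of each construct other than WT, for the 1835 BAF-free regions of both mutants (left) and the 3030 new peaks of both mutants with a WT BAF peak (right), on axes of different range. In both panels DBDmut is highest and delIDR1 next, with SMARCC1 of DBDmut at 16.1% on the left and 57.3% on the right.

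Both subunits in both mutants were found at 6 regions (0.327%). The share over all WT H3K27ac peaks was not computed, so the 6 cannot be called few or many. The 5 strongest of the 6 were all without acetylation in CBR and DDX4, as were 77.5% of all the regions. With 5 regions, no difference from that share can be read. At chr2:32977198-32978346 the H3K27ac folds were 7.91 in WT, 7.51 in DBDmut and 8.52 in delIDR1, with SMARCA4 at 6.48 and SMARCC1 at 7.01 in DBDmut and at 5.63 and 6.52 in delIDR1. The highest BAF fold was the SMARCC1 peak of DBDmut at chr4:73275880-73276351, 14.4, with 8.65 for SMARCA4 there and 8.33 for SMARCA4 and 8.61 for SMARCC1 in delIDR1. The others were chr1:211242215-211242679, chr12:75965154-75965579 and chr2:72581436-72582006, with WT H3K27ac folds of 12.9, 8.48 and 7.90. Their nearest WT BAF peaks lay 5.07 to 51.9 kb away.

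Regions with a BAF peak in DBDmut were met by CBR at a share close to that of regions without one, and by DDX4 less often. Of the 393 regions with one, CBR met 11.5% (8.67 to 15.0), against 12.3% (10.7 to 14.1) of the 1442 without. DDX4 met 9.92% (7.34 to 13.3) of those with one and 15.3% (13.5 to 17.2) of those without. The median WT H3K27ac fold was 6.69 with a DBDmut BAF peak and 5.86 without. A BAF peak of delIDR1 was found at 13.5% of regions with a DBDmut BAF peak and at 3.40% of those without, with 53 regions that had both. The share of all WT H3K27ac peaks with both was not computed.

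In the remaining libraries BAF peaks at the regions were rare. CBR had SMARCA4 at 15 regions (0.817%, against 14.0% of all WT H3K27ac peaks) and SMARCC1 at 22 (1.20%, against 15.0%), with no region that had both (0 of 1835, for which 3 counts give a limit of 0.163%). DDX4 had SMARCA4 at 4 regions (0.218%, against 14.3%) and SMARCC1 at 14 (0.763%, against 14.4%). Empty replicate 1 had SMARCA4 at 0 regions (limit 0.163%, against 8.66% of all) and SMARCC1 at 22 (1.20%, against 18.0%), and Empty replicate 2 had them at 3 (0.163%, against 13.9%) and 13 (0.708%, against 22.4%). HA of DDX4 met 4 regions (0.218%, against 8.18%). The few Empty SMARCC1 peaks were not the weakest of their kind, with a median of 16 fragments in replicate 1 and 20 in replicate 2.

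No SMARCA4, SMARCC1 or HA peak of any library met 1350 of the 1835 regions (73.6%, against 47.5% of all WT H3K27ac peaks), and none came within 5 kb of 755 (41.1%, against 26.5%). Both shares are raised by the choice of regions without WT BAF. Of the new BAF-free peaks of neither mutant 96.9% had none and 66.8% had none within 5 kb, and of the BAF-free peaks of both Empty replicates 51.3% and 17.1%. Of those 755, CBR met 14.0% and DDX4 13.6%, where over all 1835 the shares were 12.2% and 14.1%. Besides the strongest region, the first regions without any such peak were chr2:201271224-201271667, chr1:67009202-67009458, chr10:112170789-112171327 and chr19:17246249-17246778. The chr10 region was acetylated in CBR (fold 5.34) and DDX4 (4.09), lay 0.260 kb from a WT BAF peak and 0.114 kb from an Empty H3K27ac peak, and had folds of 6.03 in WT, 7.26 in DBDmut and 6.32 in delIDR1. The chr19 region was acetylated in DDX4 only of these (5.26), 27.2 kb from WT BAF, with folds of 11.8 in WT, 7.60 in DBDmut and 7.46 in delIDR1.

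The strongest regions had peaks more often than all 1835 in libraries that did not choose them. Of the 100 strongest, CBR met 33, DDX4 35, BAF of DBDmut 50 and BAF of delIDR1 13, and 46 had no BAF or HA peak in any library. Over all WT H3K27ac peaks of any strength these shares were 42.7%, 49.0%, 31.6%, 19.3% and 47.5% in turn. WT peaks of like strength were not compared. The 5 strongest of those acetylated in neither CBR nor DDX4 included chr6:126235080-126235507, with H3K27ac folds of 16.0 in WT, 12.4 in DBDmut and 9.59 in delIDR1 and a SMARCC1 fold of 8.07 in DBDmut. They also included chr6:25193914-25194218, 0.216 kb from a WT BAF peak, with H3K27ac folds of 6.44 in WT, 9.67 in DBDmut and 8.56 in delIDR1 and SMARCC1 peaks in DBDmut (9.47) and delIDR1 (5.94). The fifth of those acetylated in both was chr22:38574140-38574340, where the CBR fold was 6.65 and the DDX4 fold 4.39, beside 5.80 in WT, 5.34 in DBDmut and 5.79 in delIDR1.

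Although none held a WT BAF peak, many of the regions lay near one. The median gap was 12516 bp, with 253 regions (13.8%) within 1 kb, 530 (28.9%, 26.9 to 31.0) within 5 kb and 1277 (69.6%) within 25 kb. Over all WT H3K27ac peaks 56.2% had a WT BAF peak within 5 kb, including those that held one. New BAF-free peaks of neither mutant were within 5 kb at 19.7%, a difference of 9.14 points (6.93 to 11.4), and BAF-free peaks of both Empty replicates at 38.8%, a difference of -9.91 points (-12.2 to -7.58). The median WT pileup was 18 fragments at the 1835 regions, 10 at peaks of neither mutant and 27 at peaks of both Empty replicates. Distances were not compared at like strength.

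Among WT sites of both SMARCA4 and SMARCC1, new ones lay within 25 kb of the regions more often than ones shared with Empty. This also held for the peaks of neither mutant. WT peaks of a single subunit were not split in this way, and shares over all WT H3K27ac peaks were not computed. WT sites of both SMARCA4 and SMARCC1 numbered 9585, of which 4322 met no Empty BAF peak and 5263 met one. A new site lay within 25 kb of 27.6% of the 1835 regions, 20.2% of the peaks of neither mutant and 13.8% of the BAF-free peaks of both Empty replicates. A site shared with Empty lay within 25 kb of 16.5%, 13.6% and 35.9% of the same sets. For new sites the 1835 regions were 7.35 points above the peaks of neither mutant (5.17 to 9.61) and 13.7 points above the peaks of both Empty replicates (11.6 to 15.9). Here too the sets differ in strength, and they were not compared at like strength.

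**Figure D5:**
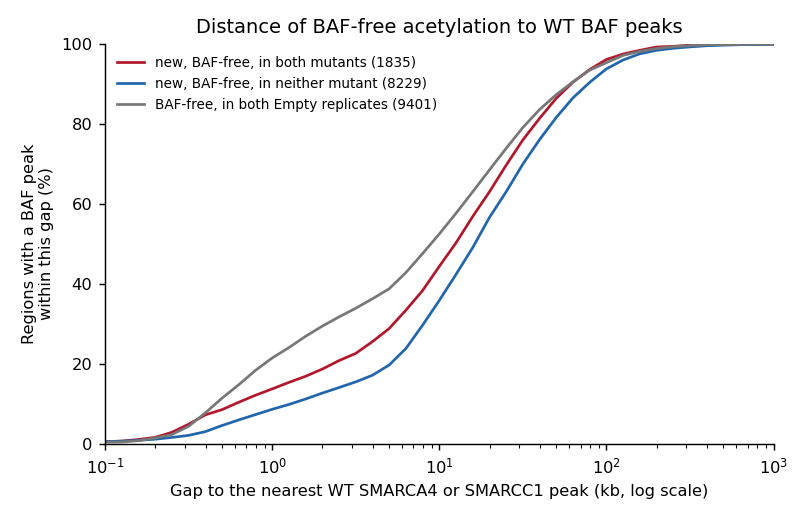
Cumulative share of regions (vertical axis, %) with a WT SMARCA4 or SMARCC1 peak within a given gap (horizontal axis, kb, log scale), for the 1835 regions, new BAF-free peaks of neither mutant and BAF-free peaks of both Empty replicates. At 5 kb the 1835 regions stand at 28.9%, between the other sets at 19.7% and 38.8%.

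Acetylation in CBR varied with this gap. CBR met 13 of the 253 regions within 1 kb of WT BAF (5.14%, 3.03 to 8.59), 12.3% of those from 1 to 5 kb, 13.3% from 5 to 25 kb, 14.8% from 25 to 100 kb and 5 of the 71 beyond 100 kb (7.04%, 3.05 to 15.4). In DDX4 the share was 14.2% within 1 kb, 15.2%, 15.8% and 12.3% in the next 3 ranges, and 4.23% (1.45 to 11.7) beyond 100 kb. The share with a BAF peak in DBDmut ran from 17.4% within 1 kb to 29.6% beyond 100 kb, with overlapping intervals (13.2 to 22.5 and 20.2 to 41.0). The 3 regions farthest from WT BAF were chr11:40466761-40467310 at 815 kb, chr2:67616580-67617454 at 655 kb and chr12:79940954-79941866 at 387 kb. The chr11 region had H3K27ac folds of 7.90 in WT, 7.61 in DBDmut, 6.67 in delIDR1 and 5.93 in CBR, with SMARCA4 in DBDmut (4.38) and SMARCC1 in delIDR1 (5.22).

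The regions were scattered. Joined across gaps of up to a little over 12 kb they formed 1722 runs, of which 1620 held 1 region, and 102 runs of at least 2 held 215 regions. The longest runs had 4 regions, at chr4:106894549-106912435 (17.9 kb) and chr4:77611320-77625089 (13.8 kb). Within the first, WT folds were 5.27 to 10.5, no region was acetylated in CBR or DDX4, and 1 had a BAF peak in delIDR1. In the second they were 3.24 to 3.72, with none acetylated in CBR or DDX4. A run of 3 at chr2:191334562-191351237 had WT folds of 8.56 to 10.1 and BAF in DBDmut at 2 of the 3. As a share of new BAF-free peaks, the regions ranged from 8.91% on chromosome 17 (54 of 606, 6.89 to 11.4) to 19.2% on chromosome 13 (76 of 395, 15.7 to 23.4), against 13.9% over all chromosomes.

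The share of new BAF-free acetylation that both mutants kept was compared with that of peaks called in a single Empty replicate. It did not exceed the share for replicate 1 and was above the share for replicate 2. Of the BAF-free WT peaks that Empty replicate 2 lacked, 2276 of 14355 (15.9%, 15.3 to 16.5) met H3K27ac of both mutants, and of those that replicate 1 lacked 3178 of 20184 (15.7%) did. Of the BAF-free peaks of Empty replicate 1 that replicate 2 lacked, 1229 of 7228 (17.0%, 16.2 to 17.9) did. With replicate 2 in the place of WT and replicate 1 as the library that lacked them, it was 3.50% (2325 of 66417), in a list of many more peaks. Of the 1229 peaks 815 were also in WT, and of the 2325 peaks 1937 were. The compared sets can therefore share sites. With CBR in the place of WT and Empty replicate 2 as the library that lacked them, the share was 9.97%. With DDX4 in that place it was 22.1%. CBR met 12.3% (11.1 to 13.8) of the 2276 WT peaks and 16.1% (14.2 to 18.3) of the 1229 Empty replicate 1 peaks. DDX4 met 23.2% (21.5 to 24.9) and 51.9% (49.1 to 54.7).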

How the data were processed

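Titles gave the construct and antibody of each of the 22 CUT&Tag libraries. The authors deposited 1 peak list per library in the narrowPeak layout, so replicates were not pooled. The submitters' processing notes name the build hg19 and bcl2fastq without a version. How reads were aligned, duplicates handled and peaks called, and with which control, is not given in the sources used here. The deposited lists give per peak a score (10 times the −log10 q, rounded down), a fold enrichment (a ratio of summit pileup to local background, each with 1 added), −log10 p and −log10 q values, the latter from about 2 upwards, and a summit offset. These values are the authors' and served to rank or filter peaks within a list, and folds of different lists are given side by side without being compared. Fragments at a summit were recovered from fold and p taken as a Poisson tail, and came out whole, with a tolerance of 0.001 in −log10 p, at 99.908% or more of each library's peaks. The lists hold no total fragment number, so depth is unknown beyond these pileups.

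Peaks on chromosomes 1 to 22 that shared at least 1 bp were counted as meeting. Coordinates are 1-based. Regions named are the 10 of smallest summed rank in the WT, DBDmut and delIDR1 H3K27ac lists, the first 5 with both subunits in both mutants, without any BAF or HA peak, with acetylation in neither and in both of CBR and DDX4, the 3 longest runs, and the 3 farthest from WT BAF. Regions, sets and settings were chosen with earlier results of these data known. The comparison with Empty, CBR or DDX4 in the place of WT and the weighting of gaps by peak strength were chosen after seeing the data. No hg19 genome or annotation was used here, so genes, markers, motifs and sequences were not analysed, and artefact-prone regions were not masked. Alternatives are given in the closing section. The code was tested on simulated data and used Python 3.11.15, numpy 2.4.6, scipy 1.17.1, pandas 2.3.3 and matplotlib 3.10.9.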

Additional observations from a re-analysis of the deposited data

Results flagged for a closer look

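The HA library of DDX4 cells, which chose no region and has no control library among those analysed, had a peak at 4 of the 1835 regions (0.218%), above the limit of 3 counts (0.163%) used for a count of 0 and with a Wilson 95% interval of 0.0848% to 0.559%. It met 8.18% of all WT H3K27ac peaks. Of the 4 regions, 1 had H3K27ac in DDX4 and 0 had SMARCA4 or SMARCC1 in DDX4.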

How the results depend on the processing

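No paired analysis was possible because replicate numbers exist only for Empty. Of 85 recomputed values, 54 stayed within the interval of the reported value (for the number of regions, within 1.5 times), 28 moved outside it and 3 changed sign. The number of regions was 2862 with lists of equal length, 868 in the stronger 50% of the WT list, 755 with no BAF or HA peak of any library within 5 kb (a setting chosen after seeing the data), and 2276 to 3178 with either Empty replicate left out. The CBR share was 19.4% with equal lists, 16.5% with summits within 250 bp, 16.2% in the stronger 50%, 14.0% without BAF or HA within 5 kb, and 12.3% to 29.7% without an Empty replicate. The DDX4 share was 21.0% with equal lists, 17.4% with summits within 250 bp and 23.2% to 37.2% without an Empty replicate. BAF in DBDmut was found at 18.5% with −log10 q of at least 5, 10.3% with equal lists, 26.6% in the stronger 50% and 19.1% to 19.7% without an Empty replicate, and BAF in delIDR1 at 4.29% with −log10 q of at least 5, 10.3% with equal lists and 5.71% to 5.88% without an Empty replicate. WT BAF lay within 5 kb of 23.8% with −log10 q of at least 5, 11.6% with equal lists, 31.3% with an overlap of 50% of the shorter peak, 17.5% when none within 1 kb was allowed (a value that this setting lowers by construction), and 29.6% to 33.7% without an Empty replicate. The gap to peaks with BAF in CBR was -5.09 points when no WT BAF peak within 1 kb was allowed and -8.94 to -2.40 points without an Empty replicate. Weighted over the 3 equal parts of the WT list, also chosen after seeing the data, it was 0.0464 points in CBR and 0.809 points in DDX4. Both values had a changed sign and an interval that spans 0, and strength can still differ within a part. In DDX4 it was -3.82 points with no BAF peak of WT, DBDmut or delIDR1, -0.760 points without Empty replicate 1 and 4.04 points, again a changed sign, without replicate 2. The cause of these shifts was not tested.

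BAF in DBDmut and delIDR1 is 0 by construction under the last definition of BAF-free and has no value there, and the motif window was not run. Depth limits the calls: weak H3K27ac peaks rest on as few as 5 fragments and weak BAF peaks on as few as 3, so a missing BAF peak in WT means that none was detectable at this depth. Each construct is 1 library, and neighbouring regions and PCR copies are not independent.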

Other observations

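The opposite pattern, acetylation of both mutants that WT lacked, was also present. Of 12544 DBDmut H3K27ac peaks that neither Empty replicate had, 8732 had no DBDmut BAF peak, 3062 of these met delIDR1, and 698 of those (22.8%) met no WT H3K27ac peak. CBR met 39 of the 698 and DDX4 met 86, and a WT SMARCA4 or SMARCC1 peak met 47. The same shares over all DBDmut H3K27ac peaks were not computed, so these counts cannot be called high or low.

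On chromosome X, left out of the regions above, 66 of 376 new BAF-free WT peaks (17.6%) met H3K27ac of both mutants. CBR met 13 of the 66 and DDX4 met 10. The same shares over all WT H3K27ac peaks of chromosome X were not computed, so no difference can be read.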
